A study of Mus musculus with 10 samples.

Results

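Transcripts of 9 genes were followed through cultured mouse basophils, eosinophils and mast cells: the activation marker genes *Cd69*, *Cd63* and *Enpp3*, and the tetraspanin genes *Cd9*, *Cd37*, *Cd53*, *Cd81*, *Cd82* and *Cd151* (*Cd63* belongs to both families). The genes were chosen by symbol, and each of the 9 was found among 19937 named genes, with 1 probe set per gene. RNA of bone marrow (BM)-derived cells had been hybridized to 10 Affymetrix GeneChip Mouse Gene 1.0 ST arrays, 1 array per condition. The conditions were *Slpi*-/- and B6 (wild type) BM-derived eosinophils (BMEos) cultured with lipopolysaccharide (LPS) for 3 h, BMEos of both genotypes without LPS, *Slpi*-/- and B6 BM-derived basophils (BMBs) incubated for 1 h with IgE against trinitrophenol (TNP) and afterwards for 12 h with TNP-ovalbumin as antigen, unstimulated BMBs of both genotypes, and unstimulated mast cells of both genotypes. All cells came from mice on the C57BL6/N strain, and the *Slpi*-/- cells lack secretory leukoprotease inhibitor throughout the culture. BMBs and mast cells were grown in IL-3, the mast cells for many weeks and the BMBs for a shorter time before selection as c-kit- DX5+ cells. BMEos were grown in stem cell factor and Flt3 ligand followed by IL-5, also for a shorter time than mast cells. Culture time and cell type can therefore not be told apart. Neither the ages of the mice nor how many animals or cultures each array represents is given in the sources used here, so a p-value here measures the spread between these arrays, which may be technical. Where cell types or stimuli are compared, the *Slpi*-/- and B6 arrays serve as the replicates. The spread then also holds any genotype difference that changes between cell types or with a stimulus.

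Tetraspanins are small proteins that cross the plasma membrane several times and gather integrins, receptors and proteases into membrane patches. CD63 lies in the membranes of granules and lysosomes and reaches the cell surface when a basophil or mast cell degranulates, which is why its surface level is used as an activation readout. CD69 is a C-type lectin that appears on leukocytes soon after activation and removes the sphingosine 1-phosphate receptor S1P1 from the surface, and ENPP3 (CD203c) is an ectonucleotidase used as an activation marker of human basophils. The arrays measure RNA, so movement of a stored protein to the surface is outside what they can show.

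The promoter windows of the tetraspanins that changed with a stimulus are printed here, so that genes that rose with both stimuli (*Cd81*, *Cd82*) can be set beside genes that fell with LPS (*Cd9*, *Cd151*). They are RefSeq windows on GRCm38.p6 that run from 250 bases before to 50 bases after an annotated start, on the gene's strand, and capitals mark a GC box (GGGCGG) or a TATA box (TATAAA) found on either strand. *Cd81* lies at chr7:143052500-143052799 (plus strand), the first *Cd82* start at chr2:93462901-93463200 (minus strand), *Cd9* at chr6:125494711-125495010 (minus strand) and the first *Cd151* start at chr7:141467112-141467411 (plus strand).
Cd81: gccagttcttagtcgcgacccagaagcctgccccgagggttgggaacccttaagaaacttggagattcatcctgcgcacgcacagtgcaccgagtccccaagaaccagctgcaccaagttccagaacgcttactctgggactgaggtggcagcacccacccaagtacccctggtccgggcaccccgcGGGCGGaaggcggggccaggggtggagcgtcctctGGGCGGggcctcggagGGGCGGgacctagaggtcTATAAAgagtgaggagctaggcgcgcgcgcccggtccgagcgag
Cd82: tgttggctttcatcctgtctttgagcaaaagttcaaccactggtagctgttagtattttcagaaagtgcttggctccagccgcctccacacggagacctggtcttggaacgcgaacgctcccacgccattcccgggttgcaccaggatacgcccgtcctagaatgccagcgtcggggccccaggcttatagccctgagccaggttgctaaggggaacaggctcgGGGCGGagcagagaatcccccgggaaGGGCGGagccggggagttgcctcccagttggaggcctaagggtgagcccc
Cd9: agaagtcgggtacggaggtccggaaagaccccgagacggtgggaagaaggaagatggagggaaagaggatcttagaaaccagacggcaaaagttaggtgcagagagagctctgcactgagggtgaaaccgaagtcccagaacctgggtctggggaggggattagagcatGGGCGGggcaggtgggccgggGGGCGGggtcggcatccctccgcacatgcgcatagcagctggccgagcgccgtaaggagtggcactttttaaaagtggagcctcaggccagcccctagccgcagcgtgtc
Cd151: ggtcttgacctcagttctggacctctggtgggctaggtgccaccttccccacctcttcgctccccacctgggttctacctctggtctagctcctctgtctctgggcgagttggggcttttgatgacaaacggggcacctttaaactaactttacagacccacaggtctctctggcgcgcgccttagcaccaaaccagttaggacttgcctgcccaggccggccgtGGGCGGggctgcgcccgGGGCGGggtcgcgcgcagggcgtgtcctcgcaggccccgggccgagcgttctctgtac
The *Cd81* window held 3 GC boxes and 1 match to the TATA box letters, which lies at +7, after the annotated start. The windows of *Cd82*, *Cd9* and *Cd151* held 2 GC boxes each, and 1 of those of *Cd82* lies at +1. GC boxes stood in 35.7% of the 32851 windows of that length in the table and TATA boxes in 13.6%. A search of the same 4 windows for an AP-1 motif (TGANTCA, in 7.81% of all windows), the NF-kB motif (8.46%), a cyclic AMP response element (TGACGTCA, 1.79%), the motif of GATA factors with letters AGATAA (11.2%) and that of ETS factors with letters CCGGAAG (8.86%), on both strands, found no match. Of 12 windows for 8 of the 9 genes, the second *Cd151* window held 1 NF-kB match. No window of *Cd69* was used.

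Across the arrays, 55.6% to 60.4% of named genes were above background, taken as the signal that 95% of olfactory receptor genes stayed under on the same array. *Prg2*, *Mcpt8* and *Cma1*, granule protein genes of eosinophils, basophils and mast cells, had their highest signals in BMEos, BMBs and mast cells. Not all listed markers separated the cells in this way. Of 4 basophil markers, 2 passed as higher in BMBs than in mast cells by limma. *Cpa3* was highest in mast cells (13.11 and 13.11, against 12.94 and 12.94 in unstimulated BMBs). All 5 mast cell markers tested were lower in BMBs, but *Tpsb2* still stood at 10.49 to 11.51 there. *Tpsab1* was above background on no array. The *Slpi* signal of *Slpi*-/- cells minus that of B6 cells was -4.99 to -1.67 on the log2 scale in the 4 BMEos and BMB pairs and -0.06 in mast cells, where it checks nothing. The mean of 4 megakaryocyte marker genes was 8.84 to 10.45 on the BMB arrays, 7.72 to 8.35 on the BMEos arrays and 6.91 to 7.10 on the mast cell arrays. On the BMEos arrays with LPS, *Xist* stood at 9.66 and 9.72 and the Y-linked *Eif2s3y* at 3.54 and 3.22, against 4.90 and 4.15 for *Xist* and 8.45 and 8.20 for *Eif2s3y* on the BMEos arrays without LPS (*Slpi*-/- and B6 in each case). The LPS arrays and the others therefore differ in sex-linked transcripts, and that difference and LPS cannot be told apart. Levels are log2 signals after robust multi-array averaging (RMA), and they are compared within a gene, never between genes.

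*Cd69* had the widest span of the 9 genes. Its signals in *Slpi*-/- and B6 cells were 10.96 and 10.89 in BMEos with LPS, 5.76 and 5.84 in BMEos without LPS, 10.62 and 10.56 in BMBs with IgE, 9.23 and 9.92 in BMBs without IgE, and 11.98 and 11.81 in mast cells. The 5 settings thus ran from mast cells at the top through BMEos with LPS, BMBs with IgE and unstimulated BMBs to unstimulated BMEos, and the arrays of neighbouring settings did not overlap. In unstimulated BMEos the signal was just above the background of 5.68 and 5.65 on the same arrays and below the stricter 99% level of these genes (6.38 and 6.40).

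*Cd63* differed little between arrays. Its signals in *Slpi*-/- and B6 cells were 10.85 and 10.72 in BMEos with LPS, 10.73 and 10.80 in BMEos without LPS, 11.19 and 11.43 in BMBs with IgE, 11.10 and 11.28 in BMBs without IgE, and 11.25 and 11.20 in mast cells. The BMEos arrays all lay below the BMB and mast cell arrays, whose ranges overlapped. *Enpp3*, with signals of 3.04 to 3.65, stayed below background on each of the 10 arrays, including both arrays of IgE-stimulated BMBs (3.34 in *Slpi*-/- and 3.19 in B6 cells), and was therefore not tested. The other 8 genes passed the filter on every array.

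*Cd53* and *Cd37* are tetraspanin genes of leukocytes. *Cd53* had signals in *Slpi*-/- and B6 cells of 10.89 and 10.81 in BMEos with LPS, 10.78 and 11.06 in BMEos without LPS, 12.70 and 12.75 in BMBs with IgE, 12.42 and 12.59 in BMBs without IgE, and 11.46 and 11.47 in mast cells. The order was BMBs, mast cells, BMEos, with no overlap between cell types. *Cd37* had signals of 11.32 and 11.30 in BMEos with LPS, 11.21 and 11.16 in BMEos without LPS, 10.75 and 10.89 in BMBs with IgE, 10.96 and 11.16 in BMBs without IgE, and 10.32 and 10.46 in mast cells, again with the *Slpi*-/- array first. Mast cells were lowest, and unstimulated BMBs and BMEos overlapped.

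*Cd81* encodes a widely expressed tetraspanin, and *Cd9* encodes its close relative, which is abundant on platelets. *Cd81* signals in *Slpi*-/- and B6 cells were 11.44 and 11.44 in BMEos with LPS, 9.85 and 9.98 in BMEos without LPS, 10.15 and 10.33 in BMBs with IgE, 9.44 and 9.17 in BMBs without IgE, and 7.96 and 7.69 in mast cells, so that no neighbouring settings overlapped. *Cd9* signals were 8.97 and 8.76 in BMEos with LPS, 9.30 and 9.33 in BMEos without LPS, 10.41 and 10.27 in BMBs with IgE, 10.14 and 10.29 in BMBs without IgE, and 9.22 and 9.12 in mast cells. The 4 BMB arrays were above the other 6.

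*Cd82* encodes a tetraspanin that binds integrins, as does *Cd151*, whose protein partners laminin-binding integrins. *Cd82* signals in *Slpi*-/- and B6 cells were 11.33 and 11.53 in BMEos with LPS, 10.53 and 10.61 in BMEos without LPS, 11.84 and 11.83 in BMBs with IgE, 11.48 and 11.52 in BMBs without IgE, and 10.16 and 10.25 in mast cells. BMEos with LPS overlapped unstimulated BMBs and mast cells were lowest. *Cd151* had signals of 6.75 and 6.62 in BMEos with LPS, 7.42 and 7.33 in BMEos without LPS, 7.62 and 7.47 in BMBs with IgE, 7.23 and 7.46 in BMBs without IgE, and 7.49 and 7.31 in mast cells. Only the BMEos arrays with LPS stood apart, below the other 8.

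**Figure D1:**
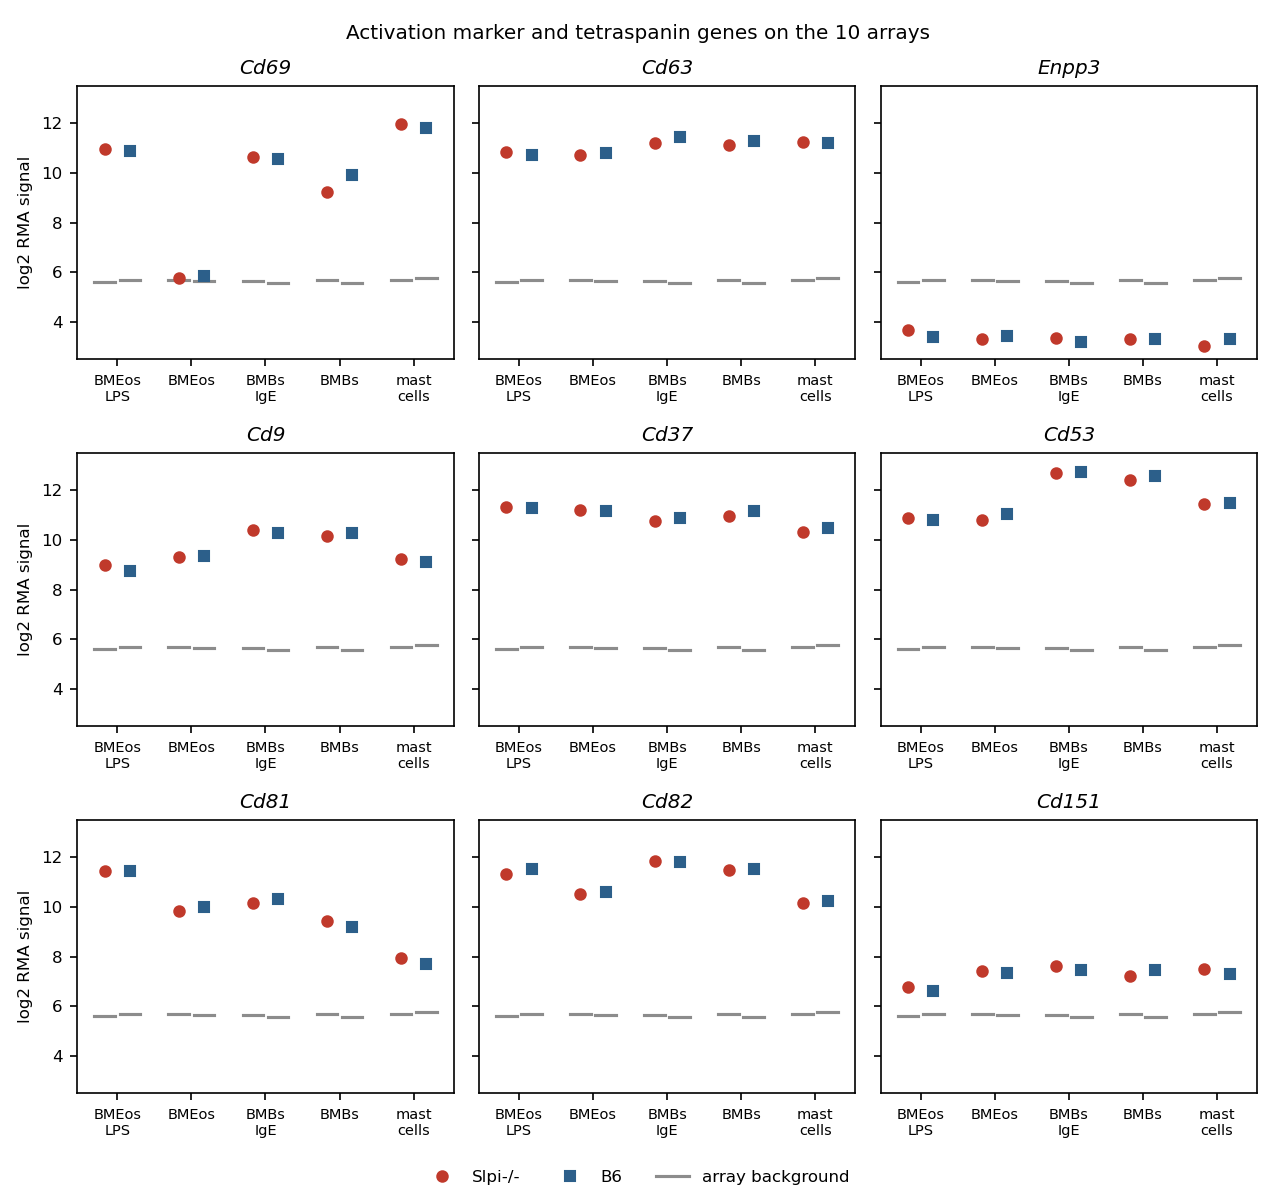
Log2 RMA signal (vertical axis) of the 9 genes on the 10 arrays, with *Slpi*-/- cells as circles, B6 cells as squares and each array's background as a grey line. *Cd69* spans 5.76 to 11.98, *Cd63* only 10.72 to 11.43, and *Enpp3* lies below the background on every array.

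In BMBs compared with mast cells, 5 tetraspanin genes were higher and *Cd69* was lower. *Cd81* was 2.80-fold higher (log2 difference 1.48 ± 0.13, SE), *Cd82* 2.45-fold (1.29 ± 0.09), *Cd9* 2.06-fold (1.04 ± 0.11), *Cd53* 2.05-fold (1.04 ± 0.11) and *Cd37* 1.60-fold (0.67 ± 0.11). *Cd69* was 4.99-fold lower (log2 difference -2.32 ± 0.20). Thus 5 of 8 genes passed as higher and 1 of 8 as lower by limma with Benjamini-Hochberg adjustment, where 18.8% of the 12998 genes tested were higher and 17.9% were lower, and adjusted p ran from 6.57e-05 for *Cd82* to 0.00267 for *Cd37*. The median difference of the 8 genes was 0.86, against -0.01 over all genes tested. *Cd63* (-0.04, 95% interval -0.28 to 0.21) and *Cd151* (-0.06, -0.35 to 0.24) did not pass. The mean of the 9 macrophage and dendritic cell markers measured was 7.51 to 7.66 on the unstimulated BMB arrays and 5.22 to 5.30 on the mast cell arrays, with 7 to 8 of 9 above background in BMBs and 1 in mast cells, and the part of such cells in these differences was not tested. Neutrophil markers averaged 6.11 to 6.98 in BMBs and 5.21 to 5.27 in mast cells, and their part was not tested. Of these 9 markers, 1 passed as higher, *Ly6g* (12.68 and 12.38 in *Slpi*-/- and B6 BMBs, against 5.70 and 5.38 in mast cells). The 4 megakaryocyte markers measured averaged 10.07 to 10.14 in BMBs and 6.91 to 7.10 in mast cells. Of these, 3 were also higher in BMBs than in mast cells and *Itga2b* was lower (signals of 10.87 and 10.98 in *Slpi*-/- and B6 BMBs, against 11.55 and 11.47 in mast cells), and their part was not tested either.

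BMEos and mast cells differed in both directions. *Cd81* was 4.27-fold higher in BMEos (log2 difference 2.10 ± 0.13), *Cd37* was 1.74-fold higher (0.80 ± 0.11) and *Cd82* was 1.29-fold higher (0.37 ± 0.09). *Cd69* was lower by 6.10 ± 0.20 on the log2 scale, and since unstimulated BMEos were near background, mast cells were at least 45.3-fold above that stricter background level. *Cd53* (-0.54 ± 0.11) and *Cd63* (-0.46 ± 0.10) were also lower. These were 3 genes higher and 3 lower of 8 by limma (adjusted p from 1.01e-06 to 0.0149), beside 24.3% of all genes tested that were higher and 26.8% that were lower. *Cd9* (0.15, 95% interval -0.10 to 0.40) and *Cd151* (-0.02, -0.32 to 0.27) did not pass. Macrophage and dendritic cell markers averaged 7.45 to 7.54 in BMEos and 5.22 to 5.30 in mast cells (7 of 9 passed as higher), neutrophil markers averaged 7.43 to 7.50 in BMEos and 5.21 to 5.27 in mast cells (5 of 9 passed as higher), and their part in these differences was not tested. Without the *Slpi*-/- BMEos array, *Cd63*, *Cd53* and *Cd82* no longer passed (adjusted p = 0.0603, 0.0552 and 0.0874, limma). *Cd63* was also lost without the B6 BMEos (0.0571) or the *Slpi*-/- mast cell array (0.0756), and *Cd82* without any 1 of the other 3 arrays of these cells (0.0690 to 0.100).

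In BMEos compared with BMBs, *Cd53*, *Cd82*, *Cd9* and *Cd63* were lower and *Cd81* was higher. *Cd53* was 2.99-fold lower in BMEos (log2 difference -1.58 ± 0.11), *Cd82* 1.90-fold (-0.93 ± 0.09), *Cd9* 1.87-fold (-0.90 ± 0.11) and *Cd63* 1.34-fold (-0.42 ± 0.10). *Cd69* differed by -3.78 ± 0.20, and BMBs were at least 9.08-fold above the stricter background level of BMEos. *Cd81* was 1.53-fold higher in BMEos (0.61 ± 0.13). By limma 1 of 8 genes was higher and 5 of 8 were lower, where 18.6% of genes were higher and 21.2% lower, with adjusted p of 1.64e-05 to 0.0159. *Cd37* (0.12, 95% interval -0.13 to 0.37) and *Cd151* (0.03, -0.26 to 0.33) did not pass. *Cd63* lost its call without either BMEos array or the B6 BMB array (adjusted p 0.0914 to 0.0991) and *Cd81* without the B6 BMEos array (log2 difference 0.41, adjusted p = 0.0858) or the B6 BMB array (0.51, adjusted p = 0.0536). The 4 megakaryocyte markers measured averaged 7.72 to 7.81 in BMEos and 10.07 to 10.14 in BMBs, and 4 of 4 passed as lower in BMEos by limma. Neutrophil markers averaged 7.43 to 7.50 in BMEos and 6.11 to 6.98 in BMBs, with 4 of 9 higher and 1 lower. Macrophage and dendritic cell markers averaged 7.45 to 7.54 and 7.51 to 7.66, with 3 of 9 higher and 4 lower. The part of such cells in these differences was not tested. The 3 cell type comparisons share arrays with each other.

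**Figure D2:**
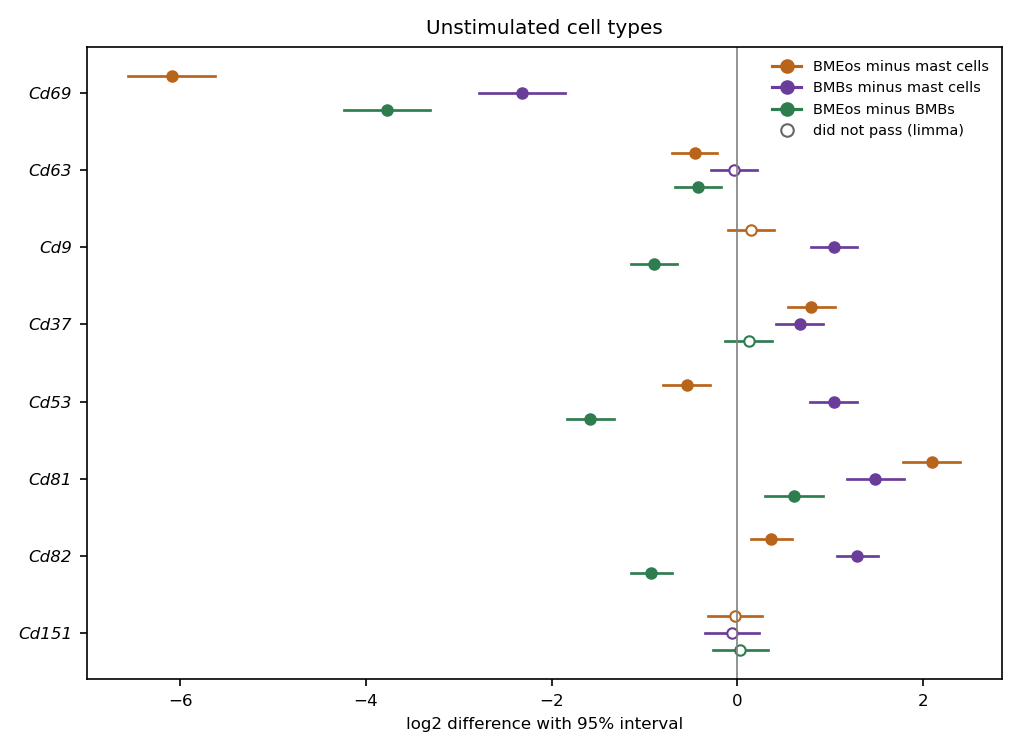
Log2 differences (horizontal axis) between unstimulated cell types for the 8 genes tested, with 95% intervals from limma; filled points passed after adjustment and open points did not. *Cd69* was lower in BMEos than in both other cell types and *Cd81* was higher, while all 3 intervals of *Cd151* cross 0.

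With LPS, 3 of the genes rose and 2 fell in BMEos. *Cd69* was higher by 5.13 ± 0.18 on the log2 scale, by 5.20 in *Slpi*-/- and 5.05 in B6 cells, which is at least 23.1-fold over the stricter background level. *Cd81* was 2.86-fold higher with LPS (1.52 ± 0.13) and *Cd82* 1.81-fold (0.86 ± 0.09). *Cd151* was 1.61-fold lower (-0.69 ± 0.12) and *Cd9* 1.36-fold lower (-0.45 ± 0.12). By limma the adjusted p was 2.19e-05 for *Cd69*, 0.000558 for *Cd81*, 0.00141 for *Cd82*, 0.00744 for *Cd151* and 0.0329 for *Cd9*, so that 3 of 8 genes rose and 2 of 8 fell, where 12.7% of the 13571 genes tested rose (1724) and 16.2% fell (2202). After each array was centred on its median, 1203 genes rose and 2756 fell, with the same 5 calls among these 8 genes. *Cd37* (0.12, 95% interval -0.10 to 0.35), *Cd53* (-0.07, -0.36 to 0.21) and *Cd63* (0.02, -0.22 to 0.26) did not pass. The calls of *Cd9* and *Cd151* were lost without any 1 of the 4 BMEos arrays (adjusted p 0.0834 to 0.273 and 0.0568 to 0.0670), and *Cd9* was lost without a filter on signal (0.0565). Macrophage and dendritic cell markers averaged 7.93 to 7.97 with LPS and 7.45 to 7.54 without, with 7 of 9 above background with LPS and 6 to 7 without, and their part in these changes was not tested.

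With IgE and antigen, *Cd69*, *Cd81* and *Cd82* rose in BMBs. *Cd69* was 2.02-fold higher (log2 difference 1.01 ± 0.18), by 1.40 in *Slpi*-/- and 0.63 in B6 cells. *Cd81* was 1.91-fold higher (0.94 ± 0.13) and *Cd82* 1.26-fold higher (0.34 ± 0.09). By limma these were 3 of 8 genes higher and 0 of 8 lower, where 12.2% of genes were higher and 10.6% lower, and the adjusted p was 0.010 for *Cd69*, 0.00475 for *Cd81* and 0.0462 for *Cd82*. *Cd37* (-0.24), *Cd53* (0.22), *Cd151* (0.20), *Cd9* (0.13) and *Cd63* (0.11) did not pass, and the 95% interval of *Cd63* ran from -0.13 to 0.36. *Cd69* did not pass without either *Slpi*-/- BMB array (0.63, adjusted p = 0.0542 and 0.0543). *Cd82* did not pass without any 1 of the 4 BMB or 4 BMEos arrays, after centring or quantile normalization, without the filter, or in BMBs alone (adjusted p 0.0542 to 0.226). Neutrophil markers averaged 5.73 to 5.78 in BMBs with IgE and 6.11 to 6.98 without, with 2 to 3 of 9 above background with IgE and 4 to 6 without, and their part in these changes was not tested. The 4 megakaryocyte markers measured averaged 10.45 in *Slpi*-/- and 8.84 in B6 BMBs with IgE, against 10.07 and 10.14 without. Their part was not tested either.

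The effect of LPS in BMEos was set against that of IgE in BMBs by the difference between them, which also carries the difference in cell type, culture and time. It further carries the difference in sex-linked transcripts between the BMEos arrays with and without LPS. *Cd69* rose more with LPS (difference of effects 4.11 ± 0.25, adjusted p = 0.000296, limma), as did *Cd82* (0.52 ± 0.13, adjusted p = 0.0356). *Cd151* had the more negative effect with LPS (-0.89 ± 0.17, adjusted p = 0.013). Of the 8 genes 2 were therefore higher and 1 was lower, beside 9.71% and 13.3% of all genes tested. *Cd81* rose with both stimuli, and the difference of 0.58 (95% interval 0.14 to 1.02) did not pass (adjusted p = 0.0652), nor did that of *Cd9* (-0.58, adjusted p = 0.0512). The *Cd82* call was lost without any 1 of the 4 BMEos or 4 BMB arrays (adjusted p 0.0870 to 0.159), after centring (0.0608) and without the filter (0.0689), and that of *Cd151* without either B6 BMEos array (0.0538 and 0.0564).

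**Figure D3:**
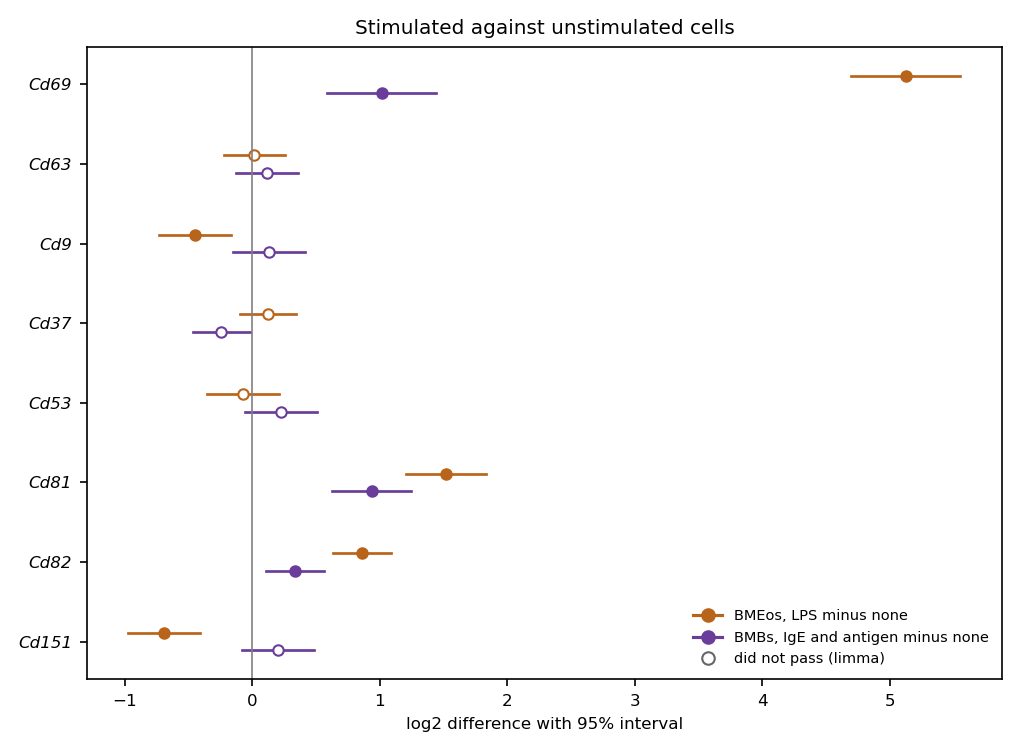
Log2 differences (horizontal axis) of stimulated minus unstimulated cells for the 8 genes tested, BMEos with LPS and BMBs with IgE and antigen, with 95% intervals from limma; open points did not pass. *Cd69*, *Cd81* and *Cd82* lie right of 0 for both stimuli, and *Cd151* and *Cd9* lie left of 0 for LPS.

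None of the 8 genes passed the test of genotype over the 5 settings. The average difference, *Slpi*-/- minus B6, was between -0.09 (*Cd69*, 95% interval -0.36 to 0.18) and 0.07 (*Cd151*, -0.10 to 0.23), and the interval of *Cd69* was the widest of the 8. By limma 0 of 8 genes were higher or lower, and so were 0 of the 13571 genes tested (0% in each direction), 722 of which had an unadjusted p under 0.05, and 0 of the 8 were among them. *Slpi* itself averaged -2.72 ± 0.66 over the 5 settings, mast cells included, with an adjusted p of 0.851. The test of whether the genotype difference itself differed between BMEos and BMBs called 0 of the 8 genes, 0 of which had an unadjusted p under 0.05, and 1 of 13571 genes, *Slpi* (0.00737% higher and 0% lower). The widest single difference was that of *Cd69* in unstimulated BMBs, -0.70 on 1 pair of arrays with no replicate check, while it was 0.07 in BMBs with IgE, 0.07 in BMEos with LPS, -0.08 in unstimulated BMEos and 0.17 in mast cells. For the other 7 genes tested, single pairs differed by -0.28 (*Cd53* in unstimulated BMEos) to 0.27 (*Cd81* in mast cells). In that unstimulated BMB pair the neutrophil marker mean also differed by genotype, at 6.11 in *Slpi*-/- and 6.98 in B6 cells. There 4 of the 9 neutrophil markers were above background in *Slpi*-/- and 6 in B6 cells, and their part was not tested. In BMBs with IgE the megakaryocyte marker mean differed by genotype, at 10.45 in *Slpi*-/- and 8.84 in B6 cells, and its part was not tested either.

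**Figure D4:**
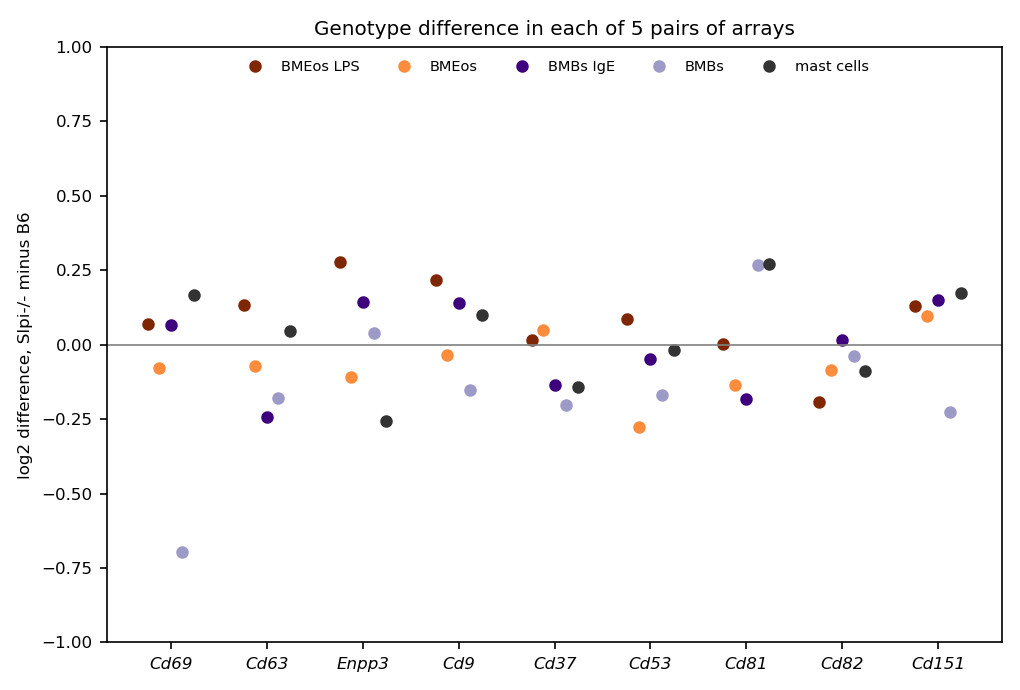
Log2 difference *Slpi*-/- minus B6 (vertical axis) for the 9 genes in each of the 5 pairs of arrays, 1 point per pair. Points scatter on both sides of 0 within 0.28, except *Cd69* in unstimulated BMBs at -0.70.

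The rest of the tetraspanin family was measured for 23 of 24 listed genes, of which 12 were above background on all 10 arrays and 6 on none. With LPS 4 of 17 tested rose and 4 fell, beside 12.7% and 16.2% of all genes, with *Tspan13* lowest (-1.78, adjusted p = 0.00886, limma) and *Tspan2* highest (0.82, adjusted p = 0.00637), and the median was 0.14 against 0.02 over all genes. With IgE 0 of 17 rose and 3 fell in BMBs, beside 12.2% and 10.6% of all genes: *Tspan13* (-1.29, adjusted p = 0.032, limma), *Tspan32* (-0.56, adjusted p = 0.00992) and *Rom1* (adjusted p = 0.0074), which was not above background on either array with IgE, so that no size is given, and the median was -0.19 against -0.02. *Tspan13* had signals of 7.74 and 7.60 in *Slpi*-/- and B6 BMEos with LPS, against 9.54 and 9.36 without, and of 9.18 and 9.92 in BMBs with IgE, against 11.25 and 10.43 without. It was therefore lower with each stimulus in both genotypes. Between BMEos and BMBs, 5 of 16 tested were higher and 6 were lower, beside 18.6% and 21.2% of all genes. Between unstimulated BMEos and mast cells, 5 of 16 were higher and 5 were lower, beside 24.3% and 26.8% of all genes. The higher ones were led by *Tspan5* (3.01, adjusted p = 9.87e-07, limma), and the lower ones by *Tspan31* (-2.86, adjusted p = 1.57e-06).

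Tetraspanin genes that neighbour each other did not share one pattern. *Cd81* and *Tspan32* have no protein-coding gene between them on chromosome 7 in the RefSeq order of GRCm38.p6, and both were higher in BMEos than in BMBs (0.61 and 1.31) and mast cells (2.10 and 1.96). With IgE *Cd81* rose by 0.94 and *Tspan32* fell by 0.56, and with LPS *Cd81* rose by 1.52 while *Tspan32* stood at 0.04 and did not pass (adjusted p = 0.787, limma). *Tspan32* signals were 8.18 and 7.51 in *Slpi*-/- and B6 BMBs with IgE, against 8.67 and 8.14 without. *Cd151* and *Tspan4*, with 1 protein-coding gene between them on the same chromosome, differed in the other way: *Tspan4* was lower in BMEos than in mast cells by a log2 difference of -2.57 ± 0.10 (adjusted p = 2.12e-06, limma), while *Cd151* differed by -0.02. *Cd82* lies next to *Tspan18* on chromosome 2, and *Tspan18* was above background on 2 arrays only.

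**Figure D5:**
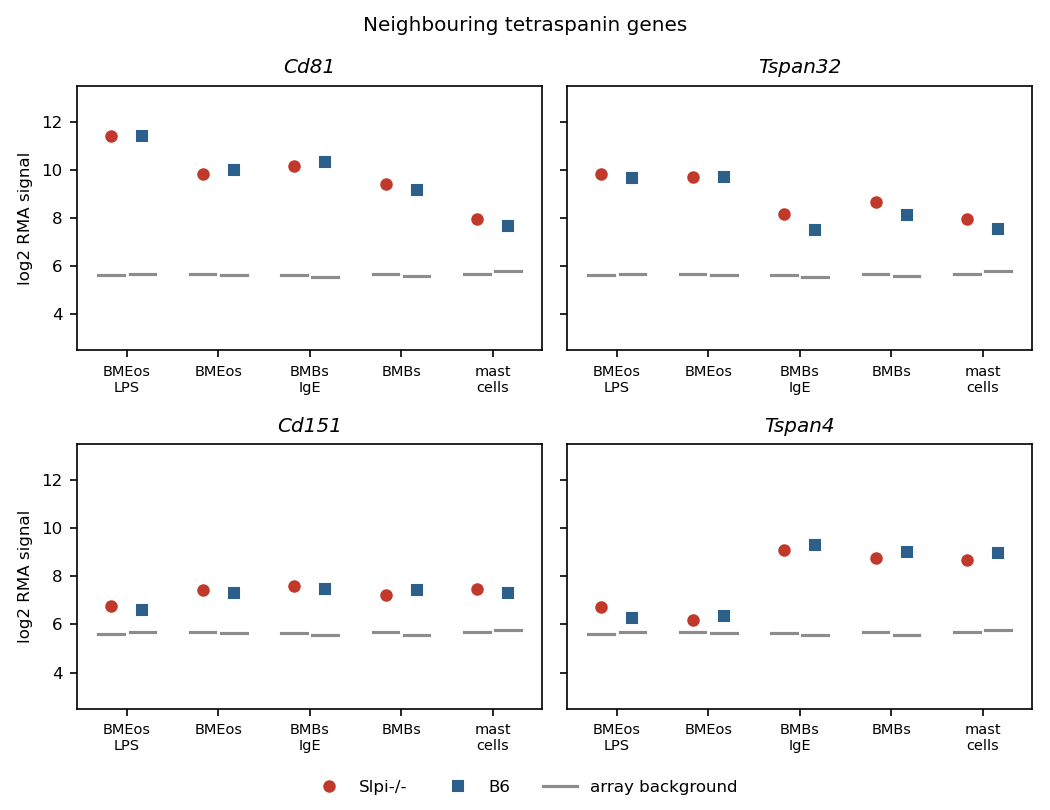
Log2 RMA signal (vertical axis) of *Cd81* and its neighbour *Tspan32* and of *Cd151* and its near neighbour *Tspan4* on the 10 arrays, with *Slpi*-/- cells as circles, B6 cells as squares and array background as grey lines. *Cd81* is higher in BMBs with IgE than without, where *Tspan32* is lower, and *Tspan4* is lower on all 4 BMEos arrays, while *Cd151* is lower only on those with LPS.

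*Cd69* was also set beside *S1pr1*, which encodes the receptor that CD69 protein removes from the surface. *S1pr1* signals in *Slpi*-/- and B6 cells were 8.74 and 8.75 in BMBs with IgE, against 10.07 and 9.93 without, and 5.73 and 5.53 in BMEos with LPS, against 6.35 and 6.12 without, and 5.46 and 5.39 in mast cells. *S1pr1* thus fell with IgE (-1.26 ± 0.10, adjusted p = 0.00113, limma) and with LPS (-0.61 ± 0.10, adjusted p = 0.00573), where it was above background on 1 of the 2 arrays with LPS. *Klf2*, which encodes a transcription factor that drives *S1pr1* in T cells, fell with LPS (-0.82, adjusted p = 0.00283) and not by this test with IgE (-0.06, adjusted p = 0.757). Of 12 tested genes in the list of CD69 partners and lectin relatives, 3 rose and 2 fell with LPS, beside 12.7% and 16.2% of all genes, and 3 rose and 2 fell with IgE, beside 12.2% and 10.6%. *Olr1*, a scavenger receptor gene, was higher by 1.45 with LPS, and it also rose with IgE, where it was not above background on either BMB array without IgE. In the family of *Enpp3*, *Enpp4* and *Enpp5* were lower in BMEos than in mast cells (-2.23 and -2.16, adjusted p = 7.55e-06 and 6.11e-06 by limma), and *Enpp6* was below background on all arrays.

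Genes with the most similar pattern over the 10 arrays were sought among 5312 genes above background on at least 1 array with a span of at least 1. For *Cd69* the nearest was *Gm614* (Pearson r = 0.95), for *Cd9* *Trim24* (0.99), for *Cd53* *Slc7a5* (0.995), for *Cd81* *Pik3ap1* (0.99) and for *Cd82* *Mmp12* (0.98). These values describe 10 arrays that fall into 3 cell types and share each array's preparation, so they are high wherever a gene differs between cell types. *Cd63*, *Cd37*, *Cd151* and *Enpp3* spanned less than 1 and were not compared.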

How the data were processed

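The authors scanned the arrays, normalized them together by RMA in the Bioconductor package affy and deposited log2 signals, which were used as deposited. RMA evens out the distributions of the arrays, so a shift shared by all genes is not measured. The platform annotation gave 1 symbol to 21640 of 34760 probe sets, several to 1321 and none to 11799. A gene was represented by its probe set with the highest mean. Genes above the 95th percentile of 1027 olfactory receptor genes on at least 1 array were tested with limma 3.58.1 in R 4.3.3 (threshold 0.05 after Benjamini-Hochberg adjustment over all genes tested): cell types in the 6 unstimulated arrays with genotype as a block, stimuli in all 10 arrays with a mean per cell type and genotype (2 residual degrees of freedom each), and genotype in all 10 arrays with a block per setting (4). Pairs come from the design, because paired arrays share genotype or setting. With 1 array per condition, the number of arrays limits the precision. The LPS fit was run on data simulated from its own model with known changes, which tests the code and not whether the model holds for these arrays. The genes and lists were chosen with earlier results of these data known. Genes named were all 9 members, up to 6 per list and comparison with the largest difference among those that passed, the genes of nearest pattern, cell type markers and *Slpi*, *Xist* and *Eif2s3y*. *Tspan18*, *Enpp6* and, in comparisons where they did not pass, *Klf2*, *Tspan32* and *Tspan4* were named after their values were seen. Alternatives covered array scaling, filters, probe set choice, variance model, pairing, arrays fitted, the methods' t-test with the same adjustment and each array or pair left out. Python 3.11.15 with pandas 2.3.3 and matplotlib 3.10.9 made tables and figures.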

Additional observations from a re-analysis of the deposited data

Results flagged for a closer look

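For 3 of the genes the effect of LPS in BMEos and the effect of IgE and antigen in BMBs differed by the limma test of the difference. *Cd69* had a difference of effects of 4.11 on the log2 scale (5.13 with LPS and 1.01 with IgE). *Cd82* had a difference of 0.52 (0.86 with LPS and 0.34 with IgE). *Cd151* had a difference of -0.89 (-0.69 with LPS and 0.20 with IgE, the IgE effect not passing on its own). Cell type, culture, duration and stimulus all differ between the 2 sides. On the LPS side the sex-linked transcripts differ as well. *Xist* stood at 4.90 and 4.15 in BMEos without LPS and at 9.66 and 9.72 with it, against 4.04 to 4.46 on the BMB arrays. These differences cannot be told apart.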

How the results depend on the processing

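The 29 member differences that passed kept their direction in all 476 limma alternatives, 428 of which also kept the call. A changed filter, variance trend or probe set choice leaves the size of a difference as it was, because each gene had 1 probe set. Leaving out an array of another cell type also left it unchanged, as for *Cd82* with IgE, which stayed at 0.34 without any 1 BMEos array. The direction in those alternatives was therefore fixed in advance. The methods' t-test was run here with Benjamini-Hochberg adjustment, while the methods name a threshold of 0.05 and no adjustment. So adjusted, and with 1 degree of freedom on 2 pairs, it called 0 of the 8 genes in each of the 3 cell type comparisons, with LPS and with IgE, where limma called 6, 6, 6, 5 and 3. Over all genes its unadjusted p was under 0.05 for 2460 genes with LPS and 1516 with IgE. The same held for 2336 genes in BMBs against mast cells, 3545 in BMEos against mast cells and 2463 in BMEos against BMBs. With 1 array left out at a time, the members called numbered 3 to 6 for BMEos against mast cells, 4 to 6 for BMEos against BMBs, 3 to 5 with LPS, 1 to 3 with IgE and 1 to 3 for the LPS effect against the IgE effect. That last comparison called 5 genes among those above background on every array, 6 with a variance trend and 5 with no replicate block, against 3. With no replicate block, 36 genes had an unadjusted p under 0.05 for genotype, against 722. Without the block, no other count of calls moved by over 1.5 times. Over all genes, LPS had 643 to 689 calls higher without any 1 BMEos array, against 1724, and 868 to 889 lower, against 2202, while the methods' t-test called 0 genes with LPS, with IgE and between BMBs and the other cell types and 1 between BMEos and mast cells. IgE had 559 and 562 higher without a *Slpi*-/- BMB array, against 1655, and 550 lower, or 897 and 903 without a B6 one, against 1436. The difference of the effects had 702 to 859 higher, against 1318, and 888 to 1035 lower, against 1801, without a BMEos or a *Slpi*-/- BMB array. BMEos against BMBs had 1522 higher without the *Slpi*-/- BMEos array, against 2414. The genotype test called 1 or 2 genes lower after centring, quantile normalization, stricter filters, with a variance trend or without the mast cell pair, against 0, and *Slpi* was no longer called in the difference of genotype effects without any 1 BMB array.

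Of 35 differences that did not pass, 13 of 594 alternatives gave a call and 36 changed the sign. Centring turned *Cd151* in BMEos against mast cells to 0.024 and *Cd63* with LPS to -0.06, and quantile normalization turned the difference of genotype effects of *Cd53* to -0.023. With 1 array or pair left out, *Cd151* ran from -0.24 to 0.12 for BMBs against mast cells, from -0.15 to 0.21 for BMEos against BMBs and from -0.14 to 0.10 for BMEos against mast cells, and *Cd63* ran from -0.12 to 0.05 for BMBs against mast cells. *Cd53* with LPS ran from -0.26 to 0.11, *Cd63* with LPS from -0.085 to 0.12 and in the difference of stimulus effects from -0.20 to 0.0044, and *Cd9* with IgE from -0.015 to 0.28. The genotype difference over all settings ran from -0.16 to 0.056 for *Cd69* and from -0.012 to 0.10 for *Cd81*. The difference of genotype effects ran from -0.071 to 0.69 for *Cd69*, from -0.049 to 0.24 for *Cd9*, from -0.17 to 0.19 for *Cd53*, from -0.34 to 0.12 for *Cd81* and from -0.038 to 0.34 for *Cd151*. The cause was not tested. Signals near background limit *Cd69* in unstimulated BMEos and *Enpp3* on all arrays, and *Rom1*, *Olr1* and *Cd200r1* where they were not above background. *Tspan4*, *Enpp4*, *Enpp5*, *S1pr1* and *Cd40* in unstimulated BMEos were also below the stricter 99% level of their arrays. So were *Tspan5* in mast cells and *Itga4* in BMBs with IgE. The sizes of their differences are limited in the same way.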

Other observations

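Of 22 other surface molecules of activated leukocytes tested, 6 rose and 2 fell in BMEos with LPS, beside 12.7% and 16.2% of all genes: *Icam1*, an integrin ligand gene, rose by 2.70 (adjusted p = 4.24e-05, limma), the death receptor gene *Fas* by 1.93, and the co-stimulatory genes *Cd80* by 1.23 and *Cd40* by 0.64. *Cd200r1* fell to a signal not above background on either array with LPS. With IgE 2 of 22 rose in BMBs and 7 fell, beside 12.2% and 10.6% of all genes. Those that rose were the transferrin receptor gene *Tfrc* (1.05, adjusted p = 0.015) and *Slc3a2* (0.64), and those that fell included *Cd33* (-0.83, adjusted p = 0.00908), a lectin gene. The list medians were 0.15 with LPS and -0.23 with IgE, against 0.02 and -0.02 over all genes.

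Among 18 tested partners of tetraspanins, 6 rose with LPS, including the integrin genes *Itga4* (1.27) and *Itgb1* (1.08), and 2 fell, including *Adam10* (-0.41), a sheddase gene, beside 12.7% and 16.2% of all genes. With IgE 1 rose, *Igsf8* (0.62, adjusted p = 0.0432, limma), which encodes a partner of CD9 and CD81, and 6 fell, including *Itgb2* (-1.09), *Itga4* (-0.65) and *Adam17* (-0.51), beside 12.2% and 10.6% of all genes. The list medians were 0.11 with LPS and 0.02 with IgE, against 0.02 and -0.02 over all genes. The difference of *Itga4* effects, LPS in BMEos minus IgE in BMBs, was 1.92 (adjusted p = 0.000523). *Icam1* and *Cd44* stand in both lists.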
